A study of Homo sapiens with 6 samples.

Results

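The genes described here are the long intergenic noncoding RNA genes that were expressed in spheroids of Cal27, an established human line of tongue squamous carcinoma. Members were the rows whose gene symbol is LINC followed by a number and whose level averaged at least 1 TPM (an abundance scaled by gene length to a fixed library total) over all 6 libraries. This left 294 of 2157 LINC rows among 38167 genes in the table. The members were thus selected on their mean TPM over both conditions, and their levels are a description. The rule did not use the contrast between conditions, but members that passed it through 1 condition alone had to differ. Earlier results of these data were also known when the members were chosen. Spheroids were grown by liquid overlay in stiff Matrigel at 12 mg/mL or in soft Matrigel at 3 mg/mL, and polyadenylated RNA was sequenced on day 14 from 3 libraries of each condition. Matrigel is a gel of basement membrane proteins. More of it gives a stiffer gel and also more ligand for the cells, and these cannot be told apart. All libraries come from 1 cell line, and although the labels call them biological replicates, nothing says that they were separate cultures. The p-values therefore measure only the spread between these libraries.

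Long intergenic noncoding RNAs are transcripts from between coding genes that are spliced and polyadenylated like messenger RNA but have no long reading frame. Most are less abundant and more restricted to particular cell types than messenger RNA. Some act in cis on nearby genes, some act elsewhere in the nucleus or the cytoplasm as scaffolds or as decoys for proteins and microRNAs, and for many no function is known. In squamous carcinomas a few, such as LINC01503 and LINC00958, have been reported to be abundant and to favour growth of the tumour cells. Selection of polyadenylated RNA means that transcripts without a poly(A) tail were not measured.

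The name LINC was checked against annotations. RefSeq (GRCh38.p14) matched 275 members by symbol and 18 by an older name, and lists 290 of them as long noncoding RNA. It lists LINC00672 (as LASP1NB) and LINC00634 (as SMIM45) as protein-coding, and LINC01764 had no match. GENCODE release 29 matched 281 members, of which 229 are typed as lincRNA and 19 as antisense. The RefSeq span of 37 members overlaps the span of a coding gene, so these are not intergenic by position. For 70 members, at least 10% of the exons lie under another gene or at least 10% of the 61-base windows recur in another gene, and their counts are uncertain because the rule for reads that match several genes is not given. Strand was not resolved either: TALAM1, antisense to MALAT1, carried 92.7% to 94.3% of the MALAT1 count in each library.

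Library totals ran from 35292340 to 36594685 counts in stiff and from 30656278 to 40583044 counts in soft. Stiff replicate 2 stood apart from the other stiff libraries on the second principal component of all genes, which held 10.8% of the variance. Squamous epithelial markers such as KRT5 and KRT14 summed to between 30100 and 32400 TPM in stiff and between 7890 and 8720 TPM in soft. Of these 8 genes, 5 rose and 2, EPCAM and CDH1, fell. Fibroblast markers summed to between 39.6 and 44.2 TPM in stiff and between 16.8 and 20.5 TPM in soft, with THY1 at 0 counts in every library and COL3A1 at 0 to 2 counts. Immune markers summed to between 113 and 130 TPM in stiff and between 72.0 and 77.3 TPM in soft, with PTPRC at 0 to 3 counts per library. Endothelial markers summed to at most 1.8 TPM in stiff and at most 0.9 TPM in soft, with KDR at 0 to 2 counts and PECAM1 at 7 to 15 counts per library. The part of these marker levels in the changes of the LINC genes was not tested.

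The LINC genes held between 0.165% and 0.176% of the counts of a library. Their summed level was 2730, 2560 and 2810 TPM in the stiff libraries and 2490, 2440 and 2610 TPM in the soft libraries, and these ranges overlap. The median member averaged 3.42 TPM and the highest 155 TPM. Of the 294 members, 58 averaged at least 10 TPM and 93 lay between 1 and 2 TPM. In every library, 203 members reached 1 TPM. Just inside the limit of 1 TPM were LINC00888, LINC01275 and LINC02065, each with a mean of 1.0 TPM. Just outside it were LINC01633 at 0.983 TPM and LINC00216 and LINC00941 at 0.967 TPM each.

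Changes were tested with edgeR's quasi-likelihood test on the counts of all genes, with p-values adjusted over 18676 genes and a threshold of 0.05. Of the 294 members, 264 had enough counts to be tested. The other 30, with 22 to 62 counts in total over the 6 libraries, were not tested. Tested members had a median of 390 counts in total, against 3500 counts for all tested genes, and the median standard error of their log2 fold change was 0.22, against 0.12 for all tested genes.

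In stiff spheroids, 75 LINC genes rose, 56 fell and 133 did not pass the test. The 131 that changed are 49.6% of the tested members, and 49.1% of all tested genes changed. The shares rising and falling were 28.4% and 21.2% of members, beside 25.3% and 23.8% of all tested genes. As a whole the LINC genes thus changed about as often as any expressed gene. The median absolute log2 fold change was 0.58 among the 264 tested members, 0.51 among the 226 tested members that averaged at least 1 TPM in both conditions, and 0.35 among all tested genes. At least 2-fold changes that passed the test were found for 70 members, or 26.5%, with 43 higher and 27 lower, beside 13.2% of all tested genes (7.6% higher and 5.62% lower). These counts include members that passed the level limit through 1 condition alone and so had to differ. Of the 226 that averaged at least 1 TPM in both conditions, 42 changed at least 2-fold and passed, or 18.6%. Changes of at least 4-fold were found for 14 higher and 5 lower among all tested members, and for 5 higher and 2 lower among those 226. The members' lower counts and larger standard errors, given above, go with these values, and the part of depth was not tested. By mean TPM, the share that passed with at least a 2-fold change was 31.8% from 1 to 2 TPM and 25.0% from 2 to 5 TPM. It was 24.1% from 5 to 20 TPM and 25.8% (8 of 31) at 20 TPM or more. TPM is scaled by gene length and does not measure depth, and no share of all genes at a like level is given.

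The 2 conditions did not overlap for 157 members, or 59.5%, beside 59.9% of all tested genes. This includes 73 of the 75 that rose and 56 of the 56 that fell. The median fold change was 2.16 among those that rose and 1.98 among those that fell. Of the members that passed the level limit through 1 condition alone, 28 averaged at least 1 TPM in stiff and 24 in soft. In the 242 members that averaged at least 1 TPM in both conditions, 226 were tested, of which 60 rose and 41 fell (44.7% together). Without the 70 members of uncertain counts, 196 were tested, of which 56 rose and 40 fell. Leaving out stiff replicate 2 gave 82 that rose and 55 that fell, beside 5310 higher and 5167 lower among all genes. In bulk RNA, fewer cells that express a gene and less RNA per cell cannot be told apart.

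**Figure D1:**
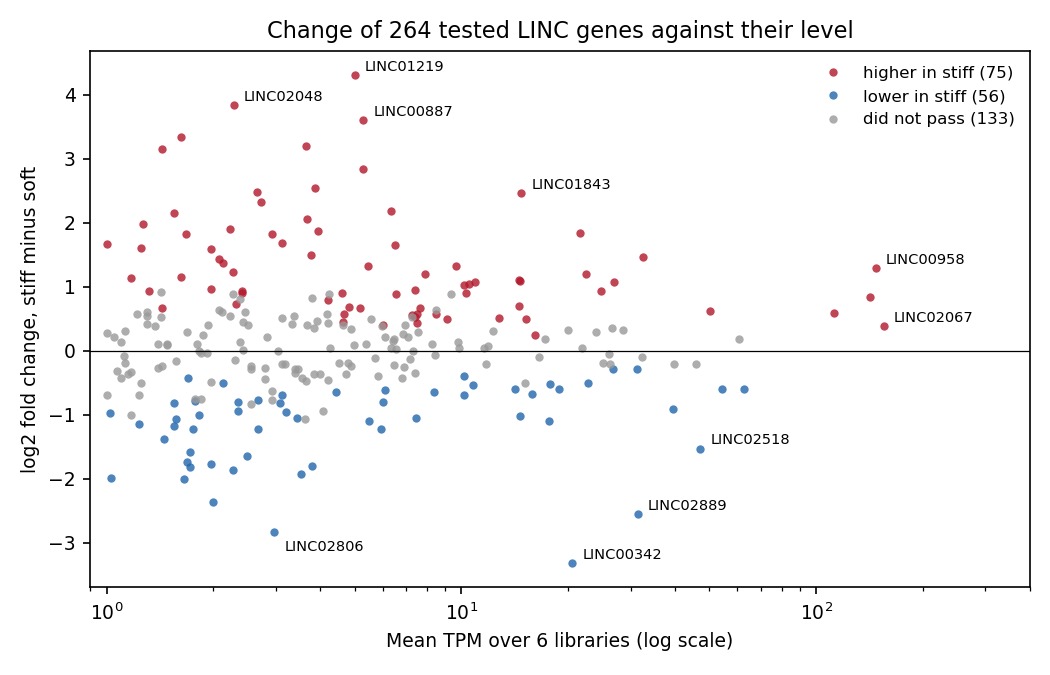
Log2 fold change (stiff minus soft, linear axis) of the 264 tested LINC genes against their mean TPM over 6 libraries (log axis), with each point 1 gene coloured by its call. The 75 genes that rose and the 56 that fell are spread over the whole range of levels, and the largest changes, LINC01219 at 4.31 and LINC00342 at -3.32, lie below the most abundant genes.

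Calls were found at all levels. Between 1 and 2 TPM, 13 of 66 tested members rose and 16 fell. Between 2 and 5 TPM, 22 of 88 rose and 16 fell. From 5 to 20 TPM, 30 of 79 rose and 15 fell, and of 31 members with 20 TPM or more, 10 rose and 9 fell.

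Of the 10 most abundant LINC genes, 5 rose, 3 fell and 2 did not pass. LINC02067 (chromosome 3, 161426427 to 161448242) had the highest mean, with 169 ± 9.19 TPM in stiff and 140 ± 7.43 TPM in soft (SD, n = 3 each). In CPM (counts relative to library size, scaled by TMM factors) it was at 115, 139 and 114 in the stiff libraries and at 84.7, 98.0 and 98.3 in the soft libraries. All stiff values lay above all soft values, and the log2 fold change was 0.39 ± 0.10 (SE, edgeR adjusted p = 0.00694).

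LINC00958 (chromosome 11, 12979534 to 12989548) was the member of the highest level in stiff, where it had 205 ± 18.0 TPM, against 90.2 ± 0.839 TPM in soft (SD, n = 3 each). Its 3 stiff libraries held 81.2, 77.9 and 83.4 CPM and its soft libraries 32.2, 33.8 and 33.2 CPM. The groups were far apart with little spread, a 2.45-fold rise (log2 fold change 1.29 ± 0.07, edgeR adjusted p = 6.08e-07).

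LINC01503, which has been described in squamous carcinomas as a target of a super-enhancer bound by p63, lies on chromosome 9 (129336923 to 129347477). It had 41.9, 52.1 and 45.6 CPM in stiff libraries and 30.4, 30 and 32.3 CPM in soft libraries, without overlap (log2 fold change 0.59 ± 0.09, edgeR adjusted p = 0.000493). LINC00963, first studied in prostate cancer, is another abundant member 141 kb away (129488660 to 129513686) and went the other way. It had 21.3, 20.7 and 24.3 CPM in stiff libraries and 32.7, 33.8 and 34.2 CPM in soft libraries (log2 fold change -0.60 ± 0.08, edgeR adjusted p = 0.000262). These 2 genes thus changed in opposite directions by similar amounts.

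Chromosome 6 held another abundant pair that parted. LINC02541 (113623535 to 113650075) had 16.5, 13 and 14.3 CPM in stiff libraries and 8.14, 7.33 and 9 CPM in soft libraries, all stiff values being higher (log2 fold change 0.84 ± 0.12, edgeR adjusted p = 0.000339). LINC02518 (113428540 to 113433447), 190 kb from it and on the same strand, had 3.54, 2.19 and 3.80 CPM in stiff libraries and 7.92, 9 and 10.6 CPM in soft libraries. Every stiff value of LINC02518 was below every soft value, a fall of 2.88-fold (log2 fold change -1.53 ± 0.20, edgeR adjusted p = 0.000164). The RefSeq promoters of this pair (GRCh38.p14, 250 bases before to 50 bases after the start, both on the minus strand) are shown because the 2 genes are close and differ in direction. LINC02541 starts within chr6:113650026-113650325 and LINC02518 within chr6:113433398-113433697, and capitals mark ACGTG, the core of the hypoxia response element, and GGAATG, a TEAD core.
LINC02541: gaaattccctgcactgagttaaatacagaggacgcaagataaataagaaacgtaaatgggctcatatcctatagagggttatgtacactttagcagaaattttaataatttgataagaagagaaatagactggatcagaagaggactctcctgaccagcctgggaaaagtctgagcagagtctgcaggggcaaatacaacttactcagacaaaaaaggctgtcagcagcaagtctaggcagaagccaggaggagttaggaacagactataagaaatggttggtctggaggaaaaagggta
LINC02518: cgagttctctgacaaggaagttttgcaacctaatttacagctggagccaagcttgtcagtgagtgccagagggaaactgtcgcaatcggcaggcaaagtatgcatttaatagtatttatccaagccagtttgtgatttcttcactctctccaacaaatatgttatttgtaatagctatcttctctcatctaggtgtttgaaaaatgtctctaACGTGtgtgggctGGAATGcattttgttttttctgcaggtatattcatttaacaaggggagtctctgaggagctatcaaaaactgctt
The promoter of LINC02518 holds 1 ACGTG and 1 GGAATG, and these letters are not in the window of LINC02541.

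The remaining abundant members varied in reliability. LINC01176 rose (58.9 ± 0.611 TPM in stiff and 41.4 ± 5.18 TPM in soft, SD, n = 3 each; edgeR adjusted p = 0.00182), and 12.5% of its exons lie under AC006978.2. LINC01764 fell (47.6 ± 10.5 TPM in stiff and 77.4 ± 6.54 TPM in soft; edgeR adjusted p = 0.00992), but 73.1% of its exons lie under UCA1 on the opposite strand, so its counts cannot be told apart from those of UCA1. LINC01137, which RefSeq names LITATS1 and which is known as a transcript induced by TGF-beta, averaged 62.1 ± 3.95 TPM in stiff and 59.3 ± 2.53 TPM in soft and did not pass (edgeR adjusted p = 0.175). LINC01160 averaged 40.8 ± 3.59 TPM in stiff and 50.9 ± 3.93 TPM in soft. It did not pass either (edgeR adjusted p = 0.109), and 14.1% of its windows recur elsewhere.

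**Figure D2:**
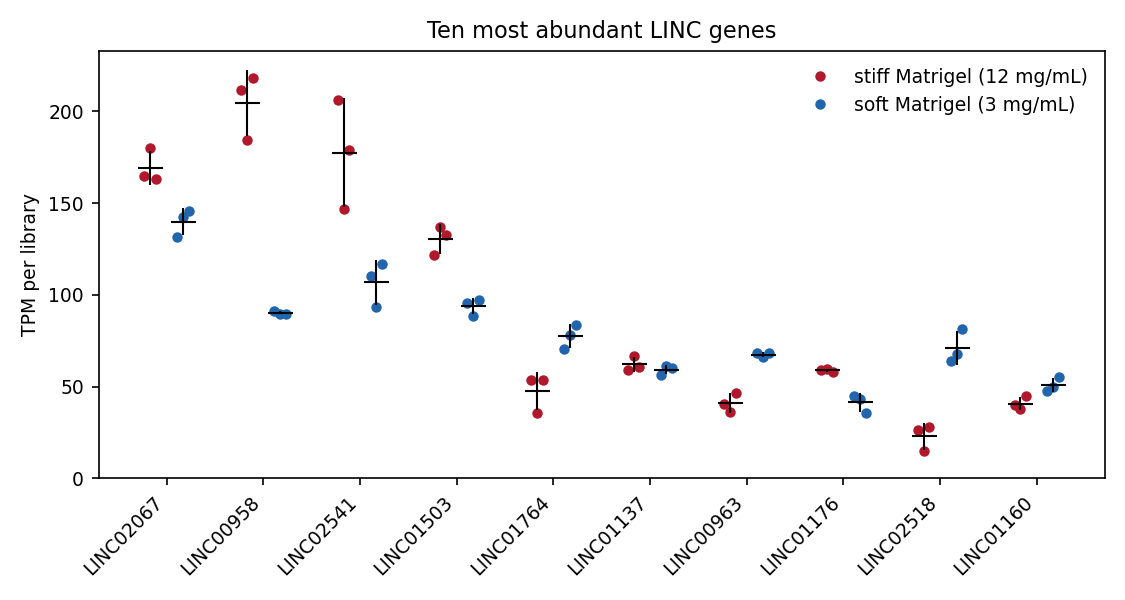
TPM per library (linear axis from 0) of the 10 most abundant LINC genes, with points for the 3 stiff and 3 soft libraries and bars for the mean ± SD. LINC00958 separates most among the genes that rose, with 205 TPM in stiff and 90.2 TPM in soft, and LINC02518 among those that fell, with 23.0 TPM in stiff and 71.1 TPM in soft.

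TPM depends on the gene length used, which the sources used here do not give. The length that links the deposited counts to the TPM was at the median 1.04 times the exon length in GENCODE 29, but under 0.5 times that length for 48 of 281 members. LINC02541, for example, has a high TPM beside a CPM of at most 16.5, and its implied length was 346 bases.

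The 10 largest rises were of genes that averaged at most 1.47 CPM in soft spheroids. Of the 14 members at least 4-fold higher, which include these 10, 5 averaged at least 1 TPM in both conditions. Of the 5 members at least 4-fold lower, 2 did. The others passed the level limit through 1 condition alone and so had to differ. LINC01219 (chromosome 11, 1991096 to 1993469) had 46, 76 and 64 counts in the stiff libraries and 2, 1 and 6 counts in the soft libraries. Summed, these are 186 counts in stiff and 9 in soft. Relative to library size scaled by TMM factors, the ratio is 20.8. Its exact Clopper-Pearson 95% bounds of 10.7 and 46.1 cover counting error only. The log2 fold change was 4.31 ± 0.47 (edgeR adjusted p = 5.37e-05), and 5.34 without soft replicate 3, which held most of the soft counts. The gene lies 1.71 kb from H19, an abundant imprinted noncoding RNA, and H19 went the other way, with 110 ± 7.18 CPM in stiff and 144 ± 13.1 CPM in soft (SD, n = 3 each; log2 fold change -0.39, edgeR adjusted p = 0.00326).

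LINC02048 and LINC00887 lie 23.0 kb apart on chromosome 3 (194276720 to 194278159 and 194301199 to 194312804) and rose together. LINC02048 had 3.48, 3.48 and 2.91 CPM in stiff libraries and 0.193, 0.176 and 0.322 CPM in soft libraries (log2 fold change 3.84 ± 0.27, edgeR adjusted p = 2.62e-06). LINC00887 had 7.86, 6.19 and 8.09 CPM in stiff libraries and 0.505, 0.498 and 0.836 CPM in soft libraries (log2 fold change 3.61 ± 0.22, edgeR adjusted p = 1.23e-06). Both were more than 10-fold higher in stiff, with no overlap. The coding gene beside them, CPN2, had too few counts to be tested.

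The promoters of LINC01219 (plus strand, chr11:1990846-1991145) and LINC00887 (minus strand, chr3:194312755-194313054), from RefSeq GRCh38.p14, are shown as those of strongly raised members. Capitals mark ACGTG, which in LINC01219 is read on both strands as CACGTG.
LINC01219: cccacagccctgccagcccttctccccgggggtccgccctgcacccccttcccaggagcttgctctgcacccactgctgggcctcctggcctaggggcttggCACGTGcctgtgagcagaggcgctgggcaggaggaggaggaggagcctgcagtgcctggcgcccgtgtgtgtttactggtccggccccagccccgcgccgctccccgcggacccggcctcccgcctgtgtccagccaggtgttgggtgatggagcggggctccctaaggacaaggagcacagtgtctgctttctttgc
LINC00887: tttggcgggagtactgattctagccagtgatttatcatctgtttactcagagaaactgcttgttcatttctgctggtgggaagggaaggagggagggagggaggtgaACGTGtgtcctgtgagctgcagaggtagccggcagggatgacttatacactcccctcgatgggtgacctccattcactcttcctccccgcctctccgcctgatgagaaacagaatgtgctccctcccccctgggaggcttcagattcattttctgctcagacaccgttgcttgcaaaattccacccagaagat
LINC00887 holds 1 ACGTG, and neither window holds TGANTCA (AP-1), GGAATG (TEAD), GCGTG (AHR) or TGATGNAA (amino acid response).

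LINC01907 was at 1.88, 1.07 and 2.83 CPM in stiff libraries and at 0.241, 0.0586 and 0.257 CPM in soft libraries (log2 fold change 3.34 ± 0.49, edgeR adjusted p = 0.000366). LINC02178 was at 0.609, 0.953 and 0.582 CPM in stiff libraries and at 0.0963, 0.0586 and 0.0643 CPM in soft libraries, or 76 counts in stiff against 8 in soft (log2 fold change 3.20 ± 0.45, edgeR adjusted p = 0.000276). LINC00520 was at 2.64, 2.83 and 2.49 CPM in stiff libraries and at 0.433, 0.293 and 0.129 CPM in soft libraries (log2 fold change 3.15 ± 0.31, edgeR adjusted p = 2.82e-05). The stiff libraries of these 3 genes lay apart from the soft libraries, but the soft values rest on few counts.

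LINC01293 had 6.52, 6.36 and 8.18 CPM in stiff libraries and 0.963, 0.938 and 1.03 CPM in soft libraries (log2 fold change 2.84 ± 0.17, edgeR adjusted p = 1.15e-06). RefSeq gives this symbol as an older name of LINC01291 (chromosome 2, 74908961 to 74943494). LINC01291 is a separate row of the count table and also rose, with 1.67 ± 0.159 CPM in stiff and 0.674 ± 0.175 CPM in soft (SD, n = 3 each; edgeR adjusted p = 0.00177). Whether the 2 rows count parts of 1 gene was not tested. LINC00173, known from blood cells, had 3.48, 3.59 and 3.02 CPM in stiff libraries and 0.385, 0.410 and 0.965 CPM in soft libraries (log2 fold change 2.55 ± 0.30, edgeR adjusted p = 9.13e-05). LINC02031 rose 5.61-fold to 8.17 ± 0.949 CPM in stiff, against 1.47 ± 0.272 CPM in soft. LINC01843 rose 5.51-fold to 6.92 ± 1.00 CPM in stiff, against 1.26 ± 0.206 CPM in soft (SD, n = 3 each).

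The largest fall was that of LINC00342 (chromosome 2, 95807052 to 95826981), with 1.97, 3.42 and 2.88 CPM in stiff libraries and 29.1, 24.8 and 28.8 CPM in soft libraries. This is a 9.96-fold fall (log2 fold change -3.32 ± 0.17, edgeR adjusted p = 4.56e-07), with all stiff values far below the soft ones. Of its windows, 21.4% recur in AC092683.1, so its count is uncertain. LINC02806 fell 7.17-fold, with 1.28, 1.57 and 2.19 CPM in stiff libraries and 13.2, 11.1 and 12.0 CPM in soft libraries, but 60.7% of its exons are overlapped by another gene, chiefly LINC01138.

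LINC02889 (chromosome 7, 17463445 to 17558909) shared no exon or window with another gene. It had 1.19, 0.617 and 1.03 CPM in stiff libraries and 6.07, 5.10 and 5.53 CPM in soft libraries, a clear separation (log2 fold change -2.56 ± 0.22, edgeR adjusted p = 1.01e-05). Its promoter (RefSeq GRCh38.p14, minus strand, chr7:17558860-17559159) is shown as that of a strongly lowered member with unshared sequence, with the AP-1 letters in capitals.
LINC02889: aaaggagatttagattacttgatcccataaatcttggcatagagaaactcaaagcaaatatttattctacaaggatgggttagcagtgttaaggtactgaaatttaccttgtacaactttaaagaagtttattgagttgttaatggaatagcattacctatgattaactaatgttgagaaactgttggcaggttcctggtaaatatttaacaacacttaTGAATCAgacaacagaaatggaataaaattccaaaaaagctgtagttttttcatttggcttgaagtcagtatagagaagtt
LINC02888 overlaps the span of LINC02889 by 3.81 kb and fell as well, with 0.174, 0.308 and 0.305 CPM in stiff libraries and 1.03, 1.32 and 0.804 CPM in soft libraries (log2 fold change -1.99 ± 0.35, edgeR adjusted p = 0.00105). Its 28 counts in stiff against 113 in soft give a ratio of 0.249 relative to library size scaled by TMM factors (95% Clopper-Pearson interval 0.158 to 0.379). Of its exons, 58.8% lie in AC019117.2.

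LINC01963 was at 0.464, 0.617 and 0.444 CPM in stiff libraries and at 2.62, 2.87 and 2.41 CPM in soft libraries (log2 fold change -2.37 ± 0.23, edgeR adjusted p = 2.17e-05). LINC01914 and LINC02898, 1.64 kb apart on chromosome 2, fell together. LINC01914 was at 0.261, 0.140 and 0.388 CPM in stiff libraries and at 0.891, 1.29 and 1.03 CPM in soft libraries (log2 fold change -2.0 ± 0.37, edgeR adjusted p = 0.00151). LINC02898, which GENCODE 29 types as protein-coding, was at 0.406, 0.729 and 0.887 CPM in stiff libraries and at 2.58, 2.52 and 2.06 CPM in soft libraries (log2 fold change -1.82 ± 0.27, edgeR adjusted p = 0.000423). Neither gene overlapped between the conditions. The other large falls were of LINC01269 (3.79-fold), LINC02012 (3.66-fold) and LINC01547 (3.49-fold), each without overlap. LINC01547 averaged 1.18 ± 0.377 CPM in stiff and 4.13 ± 0.159 CPM in soft (SD, n = 3 each).

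**Figure D3:**
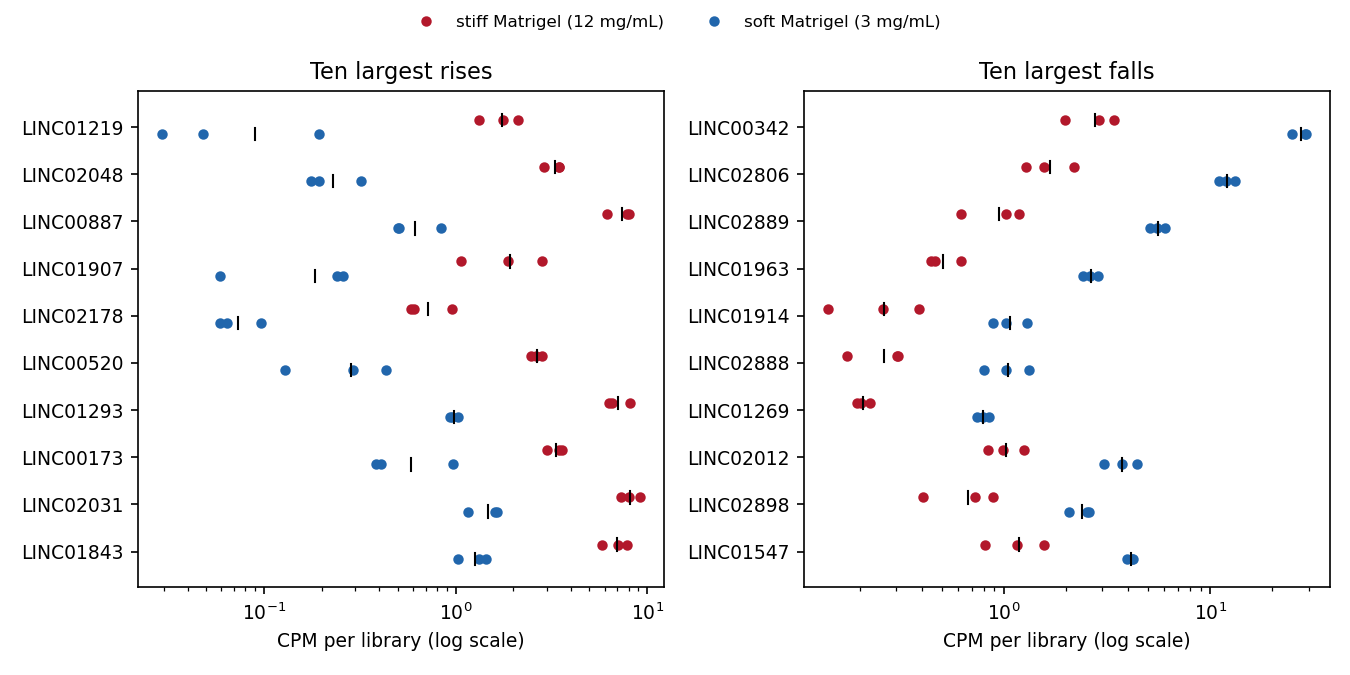
CPM per library (log axis) of the 10 largest rises (left) and the 10 largest falls (right) among LINC genes that passed the test, with 3 stiff points above 3 soft points for each gene and a short line at the mean. In none of the 20 genes do the groups overlap, and the soft values of LINC01219, LINC01907 and LINC02178 reach below 0.1 CPM.

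The smallest changes were those of LINC01637, LINC01748, LINC02562, LINC00672 and LINC01232. LINC01232 averaged 2.90 ± 0.25 CPM in stiff and 2.86 ± 0.25 CPM in soft, and LINC01637 averaged 1.21 ± 0.441 CPM in stiff and 1.21 ± 0.297 CPM in soft (SD, n = 3 each). Their standard errors on the log2 scale were 0.16 and 0.32. Of the 2 members that RefSeq lists as coding, LINC00672 did not pass (edgeR adjusted p = 0.964). LINC00634 was higher (0.599 ± 0.261 CPM in stiff and 0.276 ± 0.0671 CPM in soft; edgeR adjusted p = 0.0456), a call lost with DESeq2 (adjusted p = 0.118) and without stiff replicate 3 (adjusted p = 0.208).

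Several members changed together with a coding gene close by. BDH1, an enzyme of ketone body metabolism, lies 121 bases from LINC02012 and fell to 17.7 ± 0.297 CPM in stiff, against 43.5 ± 5.08 CPM in soft (SD, n = 3 each; log2 fold change -1.30, edgeR adjusted p = 4.15e-06). LINC02012 itself fell by 1.87 on that scale. AHR, a ligand-activated transcription factor, lies 28.8 kb from LINC02888 and fell to 469 ± 35.2 CPM in stiff, against 1270 ± 46.2 CPM in soft (log2 fold change -1.43, edgeR adjusted p = 5.73e-07). ANKRD36C, 21.9 kb from LINC00342, fell to 7.57 ± 0.878 CPM in stiff, against 30 ± 1.61 CPM in soft. PKDCC, a secreted kinase 94.2 kb from LINC02898, fell to 0.385 ± 0.154 CPM in stiff, against 2.64 ± 0.399 CPM in soft. TTC9 near LINC01269, ITGB2 near LINC01547 and XRCC5, a DNA repair factor near LINC01963, also fell, by 0.94, 0.61 and 0.26 on the log2 scale. MAP3K9, which lies closer to LINC01269 than TTC9 does, did not pass (log2 fold change -0.12, edgeR adjusted p = 0.39).

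Among members that rose, LINC00958 lies between RASSF10, which rose to 11.9 ± 0.612 CPM in stiff, against 4.66 ± 0.653 CPM in soft (log2 fold change 1.35, edgeR adjusted p = 1.7e-05), and TEAD1, a DNA-binding partner of YAP, which did not pass (53.8 ± 9.78 CPM in stiff and 62.5 ± 3.74 CPM in soft; edgeR adjusted p = 0.164). LINC01843 lies between JADE2 and CDKN2AIPNL, which rose by log2 fold changes of 0.80 and 1.03. LINC01293 lies between HK2, the hexokinase that starts glycolysis, and POLE4, a DNA polymerase subunit, which rose by smaller log2 fold changes of 0.41 and 0.49. LINC01219 lies within the span of MRPL23 (1947332 to 2014944), a mitochondrial ribosomal protein gene that rose by 0.58. Since strand was not resolved, reads of MRPL23 that fall in LINC01219 cannot be told apart from its own. TNNT3, 52393 bases from LINC01219, rose by 0.95, and SPTSSB beside LINC02067 by 1.21. The tested neighbours of LINC01907, LINC00173, LINC01176 and LINC00963 did not pass. The closest neighbour of LINC01137 is ZC3H12A, which encodes a ribonuclease that degrades inflammatory messenger RNA and lies 136 bases away. LINC01137 did not pass, whereas ZC3H12A fell to 211 ± 13.6 CPM in stiff, against 321 ± 16.5 CPM in soft (edgeR adjusted p = 0.000101).

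Each member of unshared sequence was paired with the closest coding gene within 100 kb that was tested, which gave 153 pairs. Untested coding genes that lay closer or overlapped the member were passed over. For example, LINC00601 was paired with ADAM12 at 25391 bases, though the untested C10orf90 lies 3117 bases away. The log2 fold changes of member and neighbour correlated at r = 0.34 (Spearman rho 0.36), as a description across genes measured in the same libraries. In 48 pairs both genes changed, 39 in the same direction (81.2%) and 9 in opposite directions. These pairs are not all distinct. LINC01293 and LINC01291, of 1 RefSeq gene, are both counted with POLE4, and some other coding genes are paired with more than 1 member. Where the spans of the 2 paired genes lay apart (137 pairs), the correlation was r = 0.30. There, 32 of 40 pairs in which both changed went the same way (80.0%). For tested coding genes and their closest other tested coding gene, r was 0.21 over 12929 pairs. Of 3739 pairs in which both changed, 65.2% went the same way. Where the coding spans lay apart, r was 0.18 over 9731 pairs, and 61.6% of 2859 pairs went the same way. Coding genes that are each other's closest are counted from each side. The difference between these shares was not tested. A pair chosen after its values were seen, LINC00920 and CDH5, fell by 1.22 and 4.23 on the log2 scale. Adjacent tested LINC genes of unshared sequence within 100 kb, with rows of 1 RefSeq gene counted once, formed 10 pairs, and in 5 of them both changed, each time in the same direction. These are LINC02048 with LINC00887, LINC01914 with LINC02898, LINC00519 with LINC00640, LINC01588 with LINC01599 and LINC01275 with LINC01273. In the remaining pairs at most 1 gene passed, and most had log2 fold changes of opposite sign. Opposite were LINC00673 (-0.5) with LINC00511 (0.43) and LINC02678 (0.61) with LINC02677 (-0.98). So were LINC02902 (1.66) with LINC00525 (-0.46) and LINC00111 (-0.24) with LINC00479 (0.26). Only LINC02014 (-0.21) and LINC02021 (-1.38) were both lower. LINC01588 and LINC01599 lie with a gap of 0 bases, and since strand was not resolved, shared reads cannot be told apart from a common change. LINC02888 with LINC02889 is outside these 10 pairs because LINC02888 shares exons with another gene. LINC01293 with LINC01291 is outside them because they are 1 RefSeq gene. LINC00640, for instance, had 1.75 ± 0.527 CPM in stiff and 0.385 ± 0.0477 CPM in soft, and LINC00519 had 9.34 ± 0.827 CPM in stiff and 3.41 ± 1.05 CPM in soft (SD, n = 3 each).

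**Figure D4:**
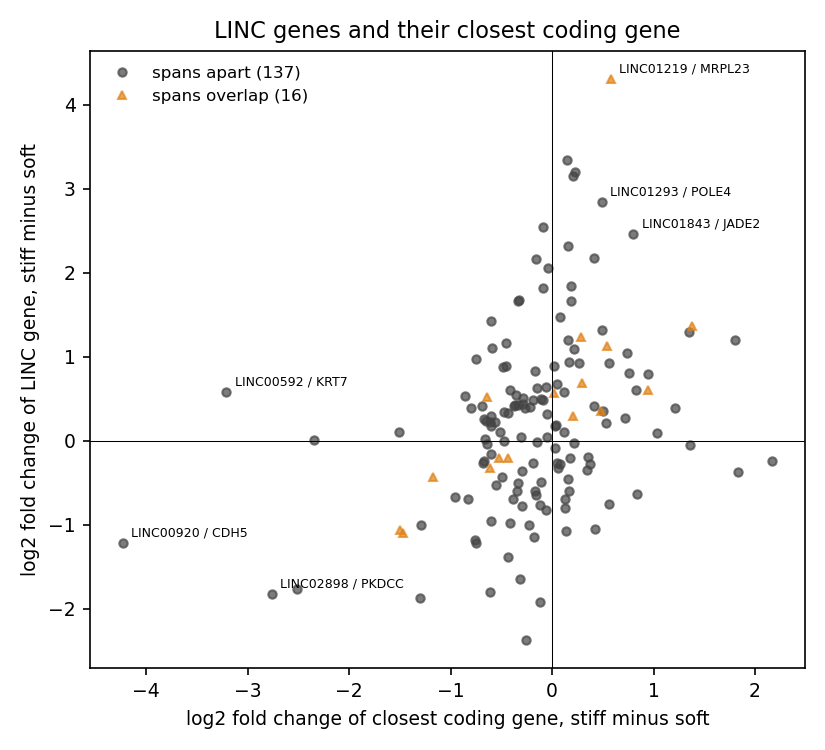
Log2 fold change of a LINC gene (vertical axis) against that of its closest tested coding gene within 100 kb (horizontal axis). Both are stiff minus soft on linear axes, for 153 pairs whose LINC gene shares little sequence with other genes. Circles mark pairs whose spans lie apart and triangles pairs whose spans overlap. The points spread widely around both zero lines (r = 0.34), and LINC00920 with CDH5 and LINC02898 with PKDCC lie far down on the side where both are lower in stiff.

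RefSeq promoters of 300 bases were found for 207 members, 53 of which rose, 39 fell and 94 did not pass. Each was searched on both strands for short letters of factors known for stress and growth responses. AP-1 (TGANTCA) was found in 15.1% of the promoters of members that rose, 12.8% of those that fell and 11.7% of those that did not pass, beside 7.76% of all 27305 promoters. The hypoxia response core (ACGTG) was found in 32.1% of those that rose, 20.5% of those that fell and 24.5% of those that did not pass, beside 21.6% of all. The AHR core (GCGTG), which can overlap ACGTG where the letters run together, was found in 22.6% of those that rose, 28.2% of those that fell and 37.2% of those that did not pass, beside 36.3% of all. For the amino acid response element (TGATGNAA) the shares were 3.77% of those that rose, 10.3% of those that fell and 3.19% of those that did not pass, beside 3.67% of all. For TEAD (GGAATG) they were 11.3% of those that rose, 12.8% of those that fell and 20.2% of those that did not pass, beside 14.0% of all. For the TATA box (TATAAA) they were 9.43% of those that rose, 10.3% of those that fell and 10.6% of those that did not pass, beside 12.0% of all. These shares rest on few promoters, at most 17 with a match among members that rose, and a match is not a site in use.

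Long noncoding RNAs of other names and host genes of small nucleolar RNAs give a scale for these changes. Of 38 tested named long noncoding RNAs outside the LINC series, 13 rose (34.2%) and 6 fell (15.8%), beside 25.3% and 23.8% of all tested genes, with a median log2 fold change of 0.21, beside 0.11 for the LINC genes. MIR205HG, the host of an epithelial microRNA, rose to 846 ± 30.6 CPM in stiff, against 276 ± 24.5 CPM in soft (log2 fold change 1.62, edgeR adjusted p = 4.06e-07). TINCR, which acts in epidermal differentiation, rose to 24.9 ± 1.09 CPM in stiff, against 7.97 ± 0.934 CPM in soft. Of 26 tested small nucleolar RNA host genes, 11 rose (42.3%) and 1, SNHG22, fell (3.85%), and SNHG7 had the smallest p (149 ± 25.3 CPM in stiff and 56.0 ± 4.51 CPM in soft; edgeR adjusted p = 8.46e-06). NEAT1, the scaffold of paraspeckles, averaged 3710 CPM in stiff and 3730 CPM in soft and did not pass (edgeR adjusted p = 0.944), nor did MALAT1 (adjusted p = 0.698).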

How the data were processed

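Polyadenylated RNA of 6 spheroid libraries was sequenced with paired reads and a directional kit, per the labels' protocols. The submitters' processing notes name the aligner STAR 2.6.1e, the counter featureCounts 1.6.2, the trimmers cutadapt 1.9.1 and Trim Galore 0.4.2, FastQC 0.11.7 for quality, and hg38. Which annotation was used, how strand was set and how reads matching several places were counted is not given in the sources used here. Whole-number counts per gene symbol were deposited by the authors without normalization, and TPM per library to 1 decimal.

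Members were selected from the deposited TPM, and the members and lists were chosen with earlier results of these data known. Stiff was compared with soft by edgeR 4.0.16 in R 4.3.3 on the deposited counts (quasi-likelihood F test with TMM factors, after filterByExpr at its default, and no covariates), with Benjamini-Hochberg adjustment over 18676 genes. CPM were scaled with the TMM factors. The script was tested on simulated data. Genes were named by rule: the 10 highest mean TPM, the 10 largest rises and falls past the threshold, the 5 smallest changes, 3 on each side of the level limit, the members RefSeq lists as coding, the nearest coding gene on each side within 100 kb of the abundant and most changed members, and up to 4 genes per other list by p. Other named genes were chosen after their values were seen. Spans and promoters are from RefSeq GRCh38.p14, and exon overlap and shared 61-base windows are from GENCODE 29 models. Intervals cover counting error only, since amplified fragments are not independent molecules. Alternatives were DESeq2 1.42.0, other scaling and filters, limma 3.58.1 on log2(TPM + 1) and log2(TPM + 0.1), the replicate number as a block, other thresholds, each library left out and, added after seeing the data, members without shared sequence.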

Additional observations from a re-analysis of the deposited data

How the results depend on the processing

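The count of LINC genes that rose (75) and fell (56) was 69 and 49 with DESeq2, 70 and 62 with scaling by library size, 73 and 63 with limma on log2(TPM + 1), and 80 and 58 without an expression filter. Among all genes, DESeq2 called 4360 higher and 4246 lower, and library size scaling 4181 and 5170. Without a filter these were 4719 and 4717. With each library left out, between 61 and 82 LINC genes rose and between 45 and 56 fell. Among all genes these ranges were 3693 to 5310 higher and 3391 to 5167 lower. Asking for a 2-fold change as well left 43 and 27 LINC genes. Over all genes, limma on log2(TPM + 1) gave 2828 higher and 4038 lower, against 4722 higher and 4449 lower with edgeR, and shifted the median log2 fold change of all genes by -0.11; its values are on the log2(TPM + pseudocount) scale, which understates the change of low genes, as for LINC01219 (2.80 in place of 4.31).

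The labels do not say that replicate numbers mark a shared day, so the numbers were not taken to pair libraries. Same-numbered libraries of the 2 conditions correlated in their deviations at 0.0733, 0.216 and 0.05. Not every library correlated best with its own number. With the replicate block 82 LINC genes rose and 62 fell, beside 5167 higher and 5039 lower among all genes.

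The log2 fold changes were followed through these settings only for the LINC genes named by rule. Among those, directions turned only in genes that did not pass in any of these settings. LINC01637 lay between -0.19 and 0.28 (log2 fold change) with a library left out. LINC01748 was at 0.00 with the block and between -0.16 and 0.16 with a library left out. LINC02562 was at -0.05 with library size scaling, -0.00 without a filter, -0.08 with limma on log2(TPM + 1), with and without its filter, -0.11 with log2(TPM + 0.1), and between -0.07 and 0.12 with a library left out. LINC00672 lay between -0.22 and 0.13 and LINC00941 between -0.28 and 0.17 with a library left out. LINC01232 was at -0.03 with library size scaling, -0.07 with limma on log2(TPM + 1), with and without its filter, -0.08 with log2(TPM + 0.1), and between -0.04 and 0.09 with a library left out. The call of LINC00634 was lost in 9 of its settings (log2 fold change 0.51 to 1.32), and LINC01160 passed with library size scaling (adjusted p = 0.0474) and with limma on log2(TPM + 1) (adjusted p = 0.0304) and log2(TPM + 0.1) (adjusted p = 0.0321). The causes were not tested. Depth limits the 60 members with under 100 counts in total.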

Other observations

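Of the 1863 LINC genes below 1 TPM, 805 had no count in any library and 83 had enough counts to be tested. Of these, 18 rose and 13 fell (37.3% together, beside 49.1% of all tested genes). LINC01527 had 24, 22 and 20 counts in stiff libraries and 0, 2 and 1 counts in soft libraries. LINC00365 went the other way, with 0, 1 and 2 counts in stiff libraries and 20, 13 and 13 counts in soft libraries. LINC00707 had 22, 25 and 36 counts in stiff libraries and 7, 4 and 6 counts in soft libraries. The groups do not overlap in these 3 genes, which were chosen after their values were seen.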
